A study of Populus ussuriensis with 9 samples.

Results

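The 10 genes described here encode the monolignol branch of lignin synthesis in poplar. They were chosen by locus ID from a list that pairs each ID with a poplar gene name, and all 10 of 10 were present among the 29764 loci of the expression table. The names come with that list. The table holds IDs alone, and no annotation was used here to check them. RNA-seq was made from leaves of Populus ussuriensis, a poplar tree, harvested when fully expanded. The plants were 6 months old and grown in a greenhouse with water withheld. The labels state the drought once as 2 weeks and once as 1 week. Wild-type (WT) plants were compared with 2 transgenic lines, OE14, labelled as a moderate overexpressor of LbDREB6, and OE18, labelled as a high overexpressor. Each group had 3 libraries, described as biological replicates. LbDREB6 belongs by its name to the DREB proteins, plant transcription factors named for the dehydration-responsive element that they bind. All plants were droughted, so no value here is a response to drought. Each level of overexpression is 1 line, so level and line cannot be told apart. The labels do not name the promoter of the transgene, and the transgene itself was not analysed here. The 3 WT columns are headed C1, C2 and C3 and were assigned to WT because the other 6 carry the titles of the transgenic lines.

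Lignin is a phenolic polymer that stiffens and waterproofs secondary cell walls, and in leaves it is laid down mainly in the xylem of the veins. Its building blocks, the monolignols, are made from coumaroyl-CoA by ring hydroxylations, methylations and a reduction of the side chain to an alcohol. Hydroxycinnamoyl transferase (HCT) and coumaroyl shikimate hydroxylase (C3H) lead to caffeoyl-CoA, which caffeoyl-CoA O-methyltransferase (CCoAOMT) turns into feruloyl-CoA. Cinnamoyl-CoA reductase (CCR) and cinnamyl alcohol dehydrogenase (CAD) carry out the reductions that give coniferyl alcohol, the unit of guaiacyl lignin. Coniferaldehyde hydroxylase (CAld5H) and its partner methyltransferase (AldOMT) divert intermediates towards sinapyl alcohol, the unit of syringyl lignin.

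In the high-overexpression line OE18 some genes of the branch were higher and others lower than in WT. Transcripts of HCT6, CCoAOMT1, CCoAOMT2 and AldOMT2 were 2.24-fold to 3.60-fold higher, whereas those of CCR2, CAD1 and CAld5H1 were 1.96-fold, 2.57-fold and 3.68-fold lower, on the scale of FPKM + 1. HCT1, the more abundant HCT gene of the list in WT, and C3H3 were 1.22-fold and 1.08-fold lower. The C3H3 call was lost in 8 of 19 alternatives. At the HCT step the listed genes, HCT1 and HCT6, thus went opposite ways, and other HCT genes were not examined. In the moderate line OE14, CCoAOMT2 and AldOMT2 were 2.26-fold and 1.76-fold higher than in WT. CCR2 and CAD1, lower in OE18, were 1.20-fold and 1.36-fold higher in OE14. FPKM counts fragments per kilobase of gene and scaled to the total of reads assigned in the library, so levels of different genes can be set side by side. Genes at 1 FPKM or more in at least 3 libraries were tested with limma on log2(FPKM + 1) over all 22848 such genes, and a difference was called at a Benjamini-Hochberg adjusted p under 0.05. Adjusted p-values below are from that fit unless another is named. Of the 10 genes, 9 were tested, and all 9 had at least 1 FPKM in each of the 9 libraries. CAld5H2 missed the filter. Library totals, recovered from the steps of the FPKM values, ran from 10988010 to 16221919 reads. In such bulk leaf samples, fewer cells of a type and less RNA per cell cannot be told apart, and no marker list for xylem or mesophyll was applied here.

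**Figure D1:**
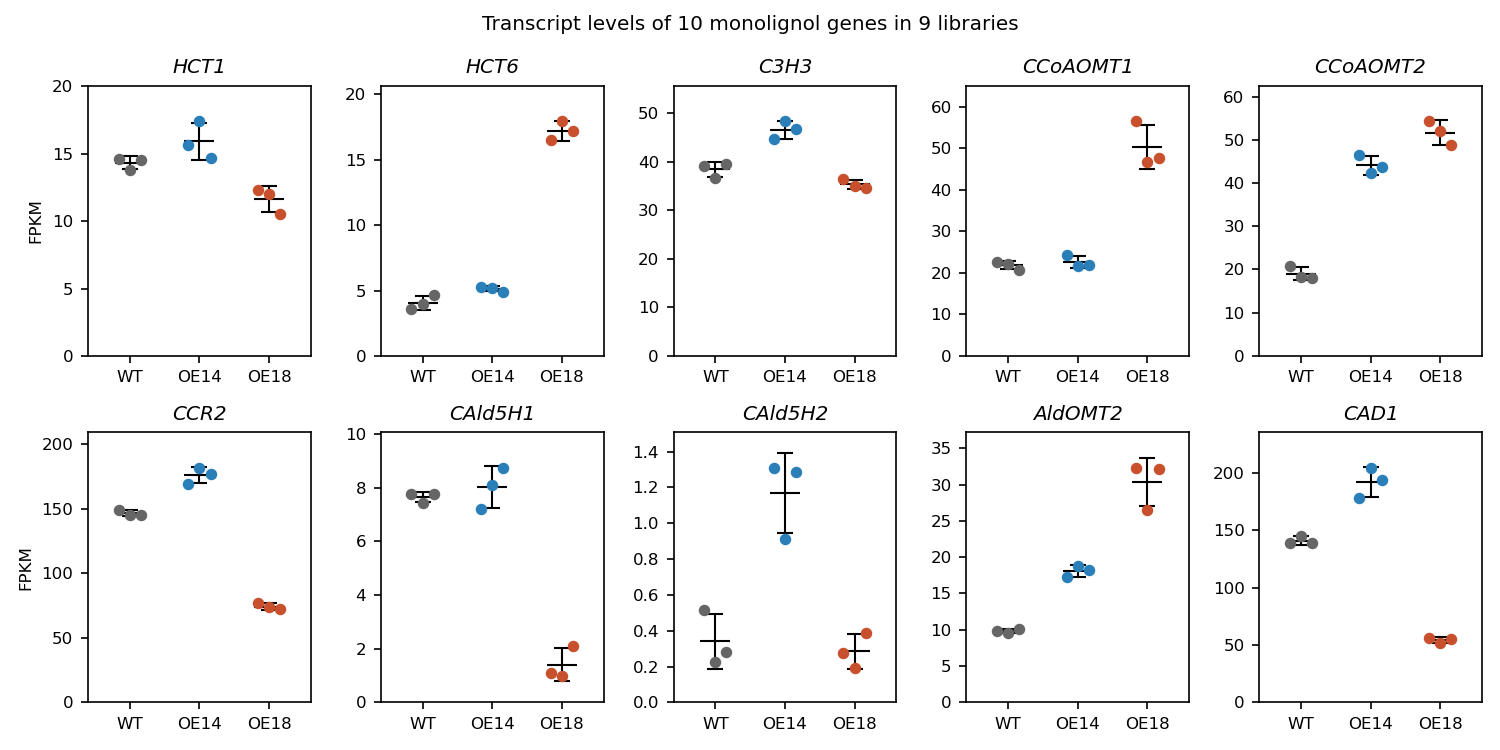
FPKM of each of the 10 genes (vertical axes, each from 0) in the 3 libraries of WT, OE14 and OE18; points are libraries, the horizontal line is the mean and the bars are the SD (n = 3). CCR2 and CAD1 are highest in OE14 and lowest in OE18, AldOMT2 rises from WT through OE14 to OE18, and CAld5H1 is low in OE18 alone, at 1.00 to 2.103 FPKM.

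In WT leaves the reductase genes CCR2 and CAD1 had the highest levels among the 10 genes, and other genes of these families were not examined. CCR2 averaged 147 ± 2.4 FPKM (SD, n = 3) and CAD1 141 ± 3.7 FPKM (SD, n = 3), with overlapping libraries, and together they made up 71.4% ± 0.72 (SD, n = 3) of the summed FPKM of the 10 genes. Next came C3H3, then CCoAOMT1 and CCoAOMT2, whose libraries overlapped slightly, then HCT1, AldOMT2, CAld5H1, HCT6 and CAld5H2, each below the range of the one before. In OE14 CAD1 and CCR2 again led with overlapping libraries, but CCoAOMT2 had moved up to overlap with C3H3, and AldOMT2 had moved up to overlap with HCT1. In OE18 CCR2 alone led, and CAD1, CCoAOMT2 and CCoAOMT1 followed with overlapping libraries between 46.7 and 56.6 FPKM. CCR2 and CAD1 then made up 39.4% ± 0.47 (SD, n = 3) of the sum. HCT6 stood above HCT1 in OE18, the reverse of their order in WT and OE14. The summed level of the 10 genes was 403 ± 3.9 FPKM in WT, 530.0 ± 20 in OE14 and 327 ± 14 in OE18 (SD, n = 3 each), with no overlap between groups. This sum is weighted towards CCR2 and CAD1, which together fell from 288 FPKM in WT to 129 in OE18. CCoAOMT1, CCoAOMT2 and AldOMT2 together rose from 50.7 to 132 FPKM, so the lower sum does not describe every gene. The sum was not set against sums of other genes. As a position among all 29764 loci, the mean level of CAD1 lay at percentile 98.4 in WT and 94.2 in OE18, and that of CAld5H1 went from percentile 61.6 to 29.5.

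HCT joins coumaroyl-CoA to shikimate, the ester on which ring hydroxylation then takes place. HCT1 (Potri.003G183900.v3.0) had 14.6, 13.8 and 14.6 FPKM in the WT libraries, 15.7, 17.4 and 14.7 in OE14 and 12.3, 12.01 and 10.5 in OE18. OE18 lay below the other groups, and OE14 lay just above WT. HCT1 fell in OE18 by 0.28 on the log2 scale (SE 0.078, limma adjusted p = 0.0043), while the OE14 value of 0.14 did not pass (95% interval -0.03 to 0.31, limma adjusted p = 0.15). HCT6 (Potri.001G042900.v3.0) had 3.55, 4.004 and 4.65 FPKM in the WT libraries, 5.26, 5.20 and 4.90 in OE14 and 16.5, 17.9 and 17.2 in OE18. Every OE18 library was more than 3-fold above every library of the other groups. HCT6 rose in OE18 by 1.85 on the log2 scale (SE 0.090, limma adjusted p = 2.0e-10). Its difference in OE14, 0.28 (SE 0.090, limma adjusted p = 0.019), was lost in 4 of 19 alternative settings. These were quantile normalization (0.17), median-of-ratios scaling (0.22) and the fits without WT library C1 (0.20) or OE14 replicate 1 (0.26), and adjusted p over all 19 ran from 0.0052 to 0.12.

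C3H hydroxylates the shikimate ester, a cytochrome P450 reaction that commits carbon to the guaiacyl and syringyl units. C3H3 (Potri.006G033300.v3.0) had 39.1, 36.7 and 39.5 FPKM in the WT libraries, 44.6, 48.3 and 46.7 in OE14 and 36.3, 35.0 and 34.6 in OE18. The OE14 libraries were the highest, and those of OE18 lay just below WT. C3H3 rose in OE14 by 0.27 on the log2 scale (SE 0.050, limma adjusted p = 0.00048). In OE18 its value was -0.12 (SE 0.050, limma adjusted p = 0.044), at the edge of the threshold. That call was lost in 8 of 19 alternatives: without WT library C1 (-0.11) or C3 (-0.10), OE14 replicate 3 (-0.12), or OE18 replicate 2 (-0.11) or 3 (-0.10), with no variance trend, with only the groups compared, and with voom on recovered reads (-0.12). Adjusted p over these settings ran from 0.0020 to 0.14.

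CCoAOMT adds the methyl group that makes feruloyl-CoA. CCoAOMT1 (Potri.009G099800.v3.0) had 22.6, 22.1 and 20.8 FPKM in the WT libraries, 24.3, 21.6 and 21.9 in OE14 and 56.6, 46.7 and 47.8 in OE18. WT and OE14 overlapped, and OE18 lay far above both. The rise in OE18 was 1.16 on the log2 scale (SE 0.073, limma adjusted p = 3.3e-09), and the OE14 value was 0.05 (95% interval -0.11 to 0.20, limma adjusted p = 0.62). CCoAOMT2 (Potri.001G304800.v3.0) had 20.8, 18.3 and 18.04 FPKM in the WT libraries, 46.6, 42.3 and 43.6 in OE14 and 54.3, 52.0 and 48.7 in OE18. Both transgenic lines stood far above WT, unlike for CCoAOMT1. CCoAOMT2 rose by 1.17 in OE14 and by 1.40 in OE18 (log2, SE 0.064 for both, limma adjusted p = 4.5e-09 and 1.1e-10). Between the lines it was higher in OE18 by 0.22 (limma adjusted p = 0.0061), a call lost on the TPM scale, on which all libraries have equal sums (0.14, limma adjusted p = 0.059, range over 20 alternatives 0.0015 to 0.059).

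CCR reduces feruloyl-CoA to coniferaldehyde, the first step committed to monolignols. CCR2 (Potri.003G181400.v3.0) had 149, 145 and 145 FPKM in the WT libraries, 169, 182 and 177 in OE14 and 76.8, 74.2 and 72.1 in OE18. The groups did not overlap, and WT lay between the lines. CCR2 rose by 0.26 in OE14 (log2, SE 0.042, limma adjusted p = 0.00014) and fell by 0.97 in OE18 (log2, SE 0.042, limma adjusted p = 5.5e-11). The direct comparison of OE18 with OE14 gave -1.23 (95% interval -1.32 to -1.14, limma adjusted p = 5.6e-12). With 1346 to 5018 reads per library, this gene varied little between libraries, with a coefficient of variation of 1.60% in WT, 3.60% in OE14 and 3.20% in OE18.

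CAD reduces the cinnamaldehydes to the alcohols that are exported to the wall. CAD1 (Potri.009G095800.v3.0) had 139, 145 and 139 FPKM in the WT libraries, 178, 205 and 194 in OE14 and 56.4, 51.7 and 55.2 in OE18. Its groups were ordered as those of CCR2 and did not overlap. CAD1 rose in OE14 by 0.44 on the log2 scale (SE 0.053, limma adjusted p = 1.1e-05) and fell by 1.36 in OE18 (SE 0.053, limma adjusted p = 1.9e-11). OE18 was 3.49-fold lower than OE14 for CAD1 (95% interval 3.22 to 3.77) and 2.35-fold lower for CCR2 (2.21 to 2.50). The difference between these genes was not tested.

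CAld5H, also known as ferulate hydroxylase, is the cytochrome P450 at the entry to syringyl lignin. CAld5H1 (Potri.005G117500.v3.0) had 7.75, 7.44 and 7.74 FPKM in the WT libraries, 7.21, 8.11 and 8.74 in OE14 and 1.09, 1.00 and 2.103 in OE18. WT and OE14 overlapped, and all OE18 libraries were far lower. The OE18 values rest on 31, 29 and 49 reads, and replicate 3 was the highest, with exact Poisson 95% limits of 1.56 to 2.78 FPKM against 0.74 to 1.54 for replicate 1. CAld5H1 fell by 1.88 in OE18 (log2, SE 0.14, limma adjusted p = 2.7e-08), and its OE14 value was 0.06 (95% interval -0.25 to 0.37, limma adjusted p = 0.76). The pseudocount understates this fall: mean FPKM was 5.47-fold lower than in WT, and voom on recovered reads gave -2.56 (adjusted p = 3.1e-12, range over 19 alternatives 3.1e-12 to 1.1e-06). Without OE18 replicate 3 the value was -2.08.

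CAld5H2 (Potri.007G016400.v3.0), the second gene of this step, was close to the detection limit. It had 0.513, 0.228 and 0.280 FPKM in the WT libraries, 1.31, 0.913 and 1.28 in OE14 and 0.275, 0.194 and 0.385 in OE18, from 24, 93 and 20 reads over the groups. The OE14 libraries were the highest, above all others, and WT and OE18 overlapped. In a limma fit with no filter on low values, it was higher in OE14 than in WT by 0.69 on the log2 scale (SE 0.11, adjusted p = 0.00042, range over 17 alternatives 0.00038 to 0.0067), and OE18 did not differ from WT past the threshold (-0.06, 95% interval -0.30 to 0.18, adjusted p = 0.66). Mean FPKM was 3.43-fold higher in OE14 than in WT. The size depends on how low values are treated, since voom gave a log2 value of 1.73.

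AldOMT, also called caffeic acid O-methyltransferase, methylates the product of CAld5H. AldOMT2 (Potri.012G006400.v3.0) had 9.85, 9.52 and 10.1 FPKM in the WT libraries, 17.2, 18.8 and 18.2 in OE14 and 32.3, 26.6 and 32.1 in OE18. Its groups were stepped without overlap, from WT through OE14 to OE18. AldOMT2 rose by 0.82 in OE14 and by 1.53 in OE18 (log2, SE 0.075 for both, limma adjusted p = 8.5e-07 and 2.3e-10), and was higher in OE18 than in OE14 by 0.71 (SE 0.075, limma adjusted p = 9.6e-07). AldOMT2 and CAld5H1, listed for consecutive steps of the syringyl branch, thus went opposite ways in OE18. AldOMT2 was 3.09-fold higher and CAld5H1 5.47-fold lower than WT in mean FPKM. CAld5H2 did not differ from WT past the threshold in OE18, and other genes of these families were not examined.

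**Figure D2:**
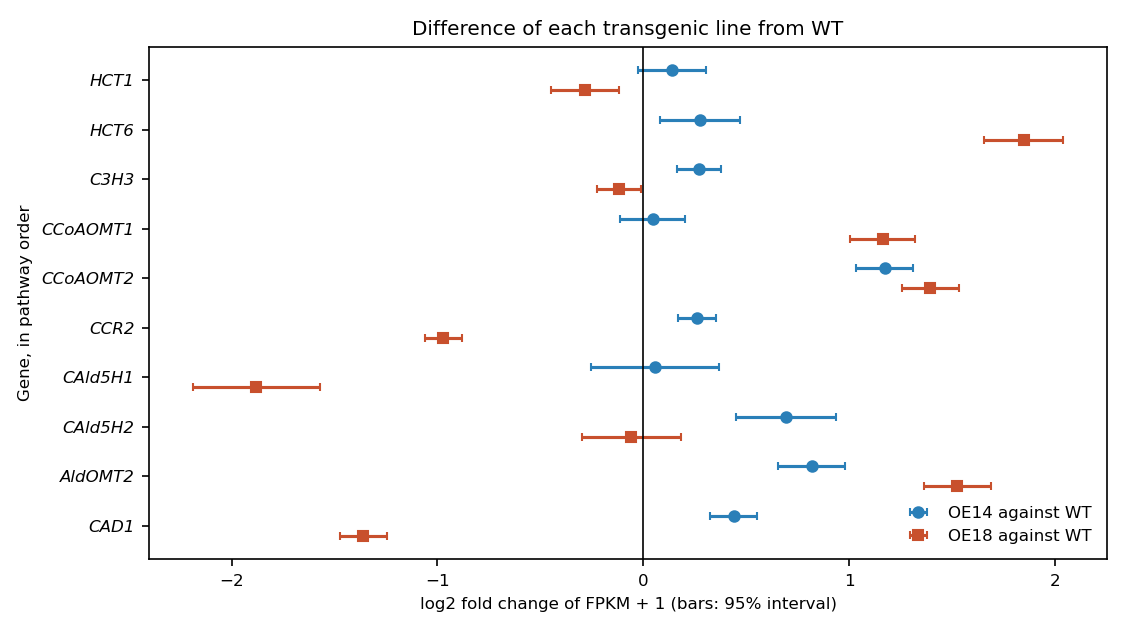
Log2 fold change of FPKM + 1 (horizontal axis) of each gene, in pathway order from top to bottom, in OE14 (circles) and OE18 (squares) against the same 3 WT libraries; bars are 95% limma intervals, and CAld5H2 comes from the fit with no filter. OE18 values spread from -1.88 for CAld5H1 to 1.85 for HCT6, and the OE14 values lie between 0.05 and 1.17.

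The first comparison asked how OE14 differed from WT. Of the 9 genes tested, 6 were called, against 52.8% of all tested genes. All 6 were higher (HCT6, C3H3, CCoAOMT2, CCR2, AldOMT2 and CAD1), where 31.9% of all tested genes were called higher, and 0 were called lower by limma, where the background was 20.9%. At an unadjusted p under 0.05, 0 members were lower too, and voom on recovered reads called 0 lower. In 7 of the 9 genes the OE14 libraries lay wholly outside the WT range, as in 60.4% of all genes. The excess of higher calls over the whole table, 7297 against 4777 lower, became 5883 against 5787 after quantile normalization. Only CCoAOMT2 passed 2-fold, against 5.48% of all genes changed by 2-fold or more in either direction. The median log2 fold change was 0.27 over the 9 genes and 0.07 over all tested genes. CCoAOMT2 lay at percentile 98.0 and AldOMT2 at percentile 94.1 of all log2 fold changes in this comparison, and CAD1 at percentile 82.1. The other called genes, HCT6, C3H3 and CCR2, lay lower, at percentiles 71.2, 70.6 and 69.9.

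The second comparison set OE18 against WT. Here 4 genes were called higher (HCT6, CCoAOMT1, CCoAOMT2 and AldOMT2) and 5 lower (HCT1, C3H3, CCR2, CAld5H1 and CAD1). All 9 were thus called, against 79.5% of all tested genes, with 41.6% called higher and 37.9% lower, so the counts are close to the background. Libraries did not overlap in any of the 9 genes, against 80.3% of all genes. Changes of 2-fold or more were found in 6 of the 9 genes, 4 higher and 2 lower, against 28.1% of all genes. That share includes genes near 1 FPKM, whose changes the FPKM + 1 scale understates, and none was counted at matched level. The same holds for the 2-fold shares of the other comparisons. CCR2, at -0.97, fell just short of that limit in this fit. It passed the limit with quantile normalization (-1.16), median-of-ratios scaling (-1.02) and TPM scaling (-1.06). The median log2 fold change was -0.12 over the 9 genes and 0.03 over all tested genes. CAld5H1 lay at percentile 1.74 of all log2 fold changes, CAD1 at percentile 4.42 and CCR2 at percentile 9.99, while HCT6 lay at percentile 92.7. Genes as long as these 10 (1170 to 2584 bases) had a median of 0.10 in this comparison. Quantile normalization shifted the median of all genes from 0.03 to -0.15, and the direction of no called member turned under the 3 scalings tried.

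**Figure D3:**
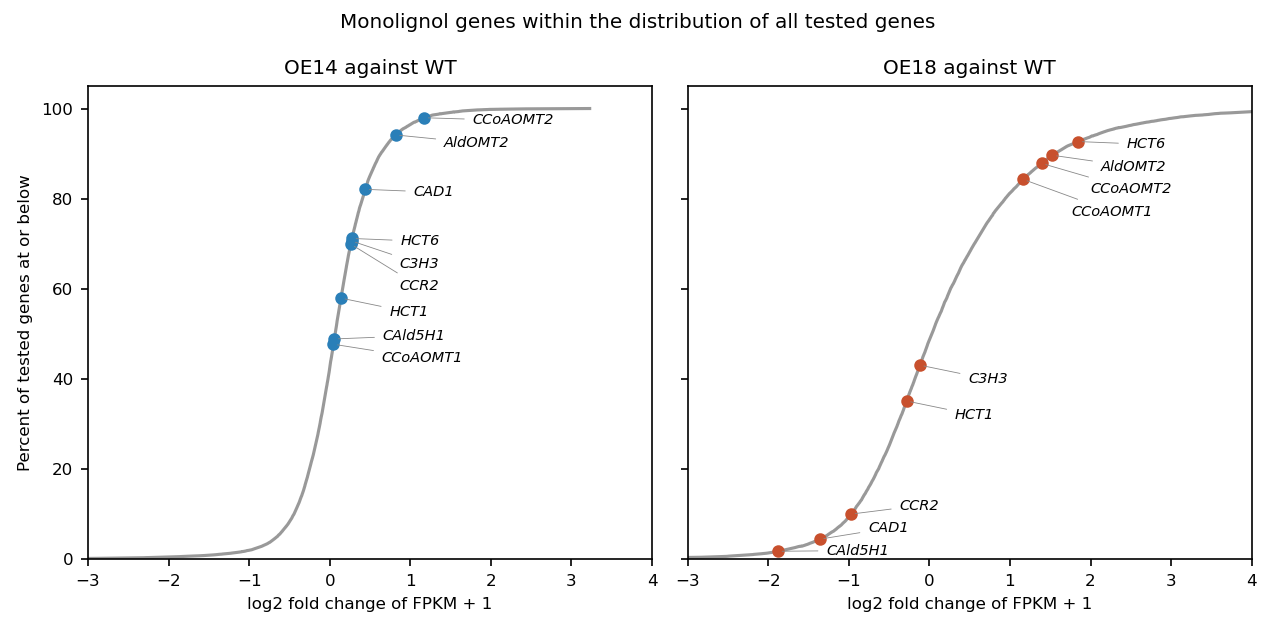
Percent of the 22848 tested genes at or below each log2 fold change of FPKM + 1 (grey line), with the 9 tested monolignol genes marked on it, for OE14 (left) and OE18 (right) against WT; the horizontal axis is limited to -3 to 4. In OE14 the genes lie from percentile 47.7 upwards. In OE18 they spread from percentile 1.74 (CAld5H1) to 92.7 (HCT6), with HCT1 at 35.1 and C3H3 at 43.

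The third comparison set the lines against each other. All 9 tested genes were called, 4 higher in OE18 (HCT6, CCoAOMT1, CCoAOMT2 and AldOMT2) and 5 lower (HCT1, C3H3, CCR2, CAld5H1 and CAD1), where 38.8% of all genes were called higher and 38.8% lower, 77.7% in all. The libraries of the lines did not overlap in any of the 9 genes, nor in 79.1% of all genes. By 2-fold or more, 5 genes differed, against 25.5% of all genes. The largest differences were those of CAld5H1, at -1.94, CAD1, at -1.80, and HCT6, at 1.57 on the log2 scale (limma adjusted p = 2.1e-08, 1.4e-12 and 1.3e-09). Both comparisons with WT share its 3 libraries. Read side by side, HCT6, CCoAOMT2 and AldOMT2 were called higher than WT in both lines. C3H3, CCR2 and CAD1 were called higher in OE14 and lower in OE18. The HCT6 call in OE14 was lost in 4 of 19 alternatives, and the C3H3 call in OE18 in 8 of 19. The share of all tested genes with either joint pattern was not counted, so neither pattern is shown to be particular to these genes. HCT1 and CAld5H1 were called only in OE18, as lower, and CCoAOMT1 only in OE18, as higher. For all 3 of these the direct comparison of the lines was called too, with log2 values of -0.42, -1.94 and 1.12 (limma adjusted p = 0.00020, 2.1e-08 and 5.7e-09).

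For 3 steps the set holds a pair of genes, and the balance within each pair differed between the genotypes. Each share was computed per library from FPKM and compared over the 3 groups by an exact permutation test of the F statistic over 1680 assignments of the libraries, for which the smallest possible p is 0.0036. HCT1 made up 80.4%, 77.5% and 75.8% of HCT1 + HCT6 in the WT libraries, 74.9%, 77.0% and 74.9% in OE14 and 42.8%, 40.1% and 38.0% in OE18. WT and OE14 overlapped, and OE18 had lost the excess of HCT1 (exact permutation p = 0.0071, adjusted over the 3 shares 0.0071). CCoAOMT1 made up 52.1%, 54.8% and 53.6% of CCoAOMT1 + CCoAOMT2 in the WT libraries, 34.3%, 33.8% and 33.5% in OE14 and 51.0%, 47.3% and 49.5% in OE18. Here OE14 was the group that stood apart, and OE18 lay just below WT (exact permutation p = 0.0036, adjusted 0.0054). CAld5H1 made up 93.8%, 97.0% and 96.5% of CAld5H1 + CAld5H2 in the WT libraries, 84.6%, 89.9% and 87.2% in OE14 and 79.8%, 83.8% and 84.5% in OE18. Both lines lay below WT (exact permutation p = 0.0036, adjusted 0.0054), but from different sides: CAld5H2 was higher in OE14, and CAld5H1 was lower in OE18. This share is limited by counting, since CAld5H2 had 24 reads over the WT libraries, 93 over OE14 and 20 over OE18. Pairs of groups were not tested for the shares. How many other pairs of genes differ in balance was not counted. Of all tested genes, 52.8% were called in OE14 against WT and 79.5% in OE18 against WT. A shift of balance is therefore not shown to be particular to these pairs. How reads that match both genes of a pair were counted is not given in the sources used here, so the shares carry that uncertainty.

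**Figure D4:**
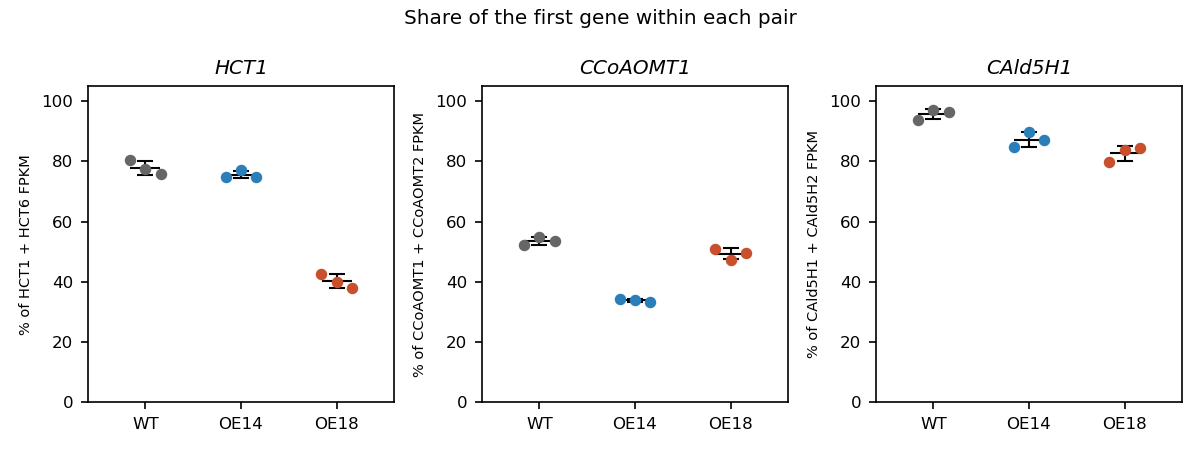
Share of the first gene in the summed FPKM of each pair, in percent (vertical axes from 0), for the 3 libraries of WT, OE14 and OE18; points are libraries, the horizontal line is the mean and the bars are the SD (n = 3). HCT1 drops to 38.0% to 42.8% in OE18, CCoAOMT1 to 33.5% to 34.3% in OE14, and CAld5H1 stays above 79% throughout.

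Likeness of pattern was measured as the root mean square difference of log2(FPKM + 1), centred on each gene, over the 9 libraries. Among the 22847 other tested genes, the non-member most like HCT6, the member with the largest rise in OE18, was Potri.010G183900.v3.0, at 0.059. It had 0.360 ± 0.16 FPKM in WT, 0.639 ± 0.058 in OE14 and 4.12 ± 0.33 in OE18 (SD, n = 3 each). It was under 1 FPKM in 6 libraries and passed the filter through OE18 alone, so its likeness rests on the pseudocount: its mean FPKM was 11.4-fold higher in OE18 than in WT, against 4.23-fold for HCT6. The non-member most like CAld5H1, the member with the largest fall, was Potri.018G099300.v3.0, at 0.13. Its levels were 8.77 ± 0.23 FPKM in WT, 7.47 ± 0.25 in OE14 and 1.58 ± 0.51 in OE18 (SD, n = 3 each). In OE14 this gene lay below WT without overlap, whereas CAld5H1 averaged 8.02 FPKM in OE14 and 7.64 in WT. The likeness thus rests on the fall in OE18. The members were not each other's nearest genes. CAD1 ranked 2132 among the genes most like CCR2, CCR2 ranked 494 among those most like CAD1, CAD1 ranked 233 among those most like CAld5H1, and C3H3 ranked 138 among those most like HCT1, the closest rank of any pair.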

How the data were processed

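The authors deposited 1 table of FPKM values, with a column for each of 9 libraries. Per the labels' protocols, a CTAB method gave the leaf RNA, and libraries followed standard Illumina steps. HISAT2 2.1.0 and Bowtie2 2.2.3 are named, without a role, in the submitters' processing notes. Counter, genome build, annotation release and use of strand: not given in the sources used here.

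Totals, gene lengths and reads were recovered from the FPKM steps, in which reads, lengths and totals are whole numbers. All 29005 loci above 0 in at least 2 libraries gave whole reads within 0.001 reads. Log2(FPKM + 1) was fitted in R 4.3.3 by limma 3.58.1 and its variance trend, in 1 fit over 9 libraries with 6 residual degrees of freedom. Genes at 1 FPKM or more in at least 3 libraries were tested, two-sided. Fold changes are on this scale, which understates changes of low genes. Intervals on reads cover counting error only. The fit and the recovery were tested on simulated data. For the fit, only a small part of the genes was changed, in OE14 alone. That simulation therefore does not cover a table in which most tested genes were called.

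Alternatives were pseudocounts of 0.1 and 0.5, no filter, a mean of 5 FPKM or more, 3 scalings, no trend, only the groups compared, limma voom on recovered reads, a replicate block, and leaving out each library. The text names all 10 members, and the gene most like the member with the largest rise and that with the largest fall in OE18. The members, lists and tests were chosen with earlier results of these data known. Lists of other pathway genes and of cell type markers, and promoter motifs, were not used here, since no annotation was at hand. P-values measure the spread between these libraries, and nothing shows that it is more than technical beyond their description as biological replicates.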

Additional observations from a re-analysis of the deposited data

Results flagged for a closer look

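All 9 tested genes differed between the transgenic lines by the direct limma test of OE18 against OE14. The log2 fold change was -1.94 for CAld5H1, -1.80 for CAD1, -1.23 for CCR2, -0.423 for HCT1 and -0.388 for C3H3. It was 1.57 for HCT6, 1.12 for CCoAOMT1, 0.709 for AldOMT2 and 0.222 for CCoAOMT2. Of all tested genes, 77.7% were called in this comparison, so a call by itself does not set these genes apart.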

How the results depend on the processing

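The counts of members called in each direction stayed within 1.5 times the reported ones under all alternatives. Over all genes, raising the filter to a mean of 5 FPKM lowered the number called higher to 5933 in OE18 against WT and to 5536 in OE18 against OE14, since fewer genes were tested. Single values that turned sign were near 0 and not called: CCoAOMT1 in OE14 against WT (-0.021 with median-of-ratios scaling, and -0.0047 to 0.077 when a library was left out, the lowest without OE14 replicate 1), CAld5H1 in OE14 against WT (-0.0053 with quantile normalization and -0.0045 with median-of-ratios scaling), and CAld5H2 in OE18 against WT (-0.12 to 0.032 when a library was left out, the highest without WT library C1). The cause was not tested. The WT columns carry no replicate number. OE14 and OE18 share numbers, but deviations of same-numbered libraries correlated at 0.0997, 0.0606 and -0.0152, so the numbers were not taken as pairs. Nor did every library correlate best with its own number. With a replicate block over these 6 libraries, 4 members were called higher and 5 lower in OE18 against OE14, and 8883 and 8855 of all genes, against 8869 and 8876 without it. In that comparison the median over all genes went from -0.01 to -0.12 after quantile normalization. CAld5H2 (20 to 93 reads a group) and CAld5H1 in OE18 (109 reads) are limited by depth.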

Other observations

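After the values were seen, the genes were grouped by type of reaction, and the groups were not tested. The methyltransferases CCoAOMT1, CCoAOMT2 and AldOMT2 together had 50.7 ± 2.3 FPKM in WT, 84.9 ± 2.9 in OE14 and 132 ± 9.5 in OE18 (SD, n = 3 each). The reductases CCR2 and CAD1 together had 288 ± 3.4 FPKM in WT, 368 ± 20 in OE14 and 129 ± 3.9 in OE18 (SD, n = 3 each). Reductase transcripts therefore stood at 5.42 to 5.82 times those of the methyltransferases in the WT libraries, 3.95 to 4.68 times in OE14, and 0.930 to 1.00 times in OE18. The CAld5H pair summed to 7.98 ± 0.30 FPKM in WT, 9.19 ± 0.77 in OE14 and 1.68 ± 0.70 in OE18 (SD, n = 3 each).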
